A study of Mus musculus with 13 samples.

Results

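Colony-stimulating factors are secreted proteins that drive the growth, survival and activation of myeloid cells, and 7 genes of this system were followed here in LPS-stimulated macrophages. The members are the genes of the ligands M-CSF (Csf1) and G-CSF (Csf3) and of the receptor chains Csf1r, Csf2ra, Csf2rb, Csf2rb2 and Csf3r, which are 7 of 24562 genes in the count table. They were chosen by name, and each symbol was represented by the RefSeq transcript with the highest total count. Libraries came from bone marrow-derived macrophages (BMDMs) of female mice, 3 control and 3 AclyM-KO after 3 h LPS, and 4 control and 3 AclyM-KO after 24 h LPS. Controls were Acly fl/fl mice, and AclyM-KO mice carry the same floxed Acly alleles together with Cre expressed from the myeloid gene Lyz2, so the deletion follows Lyz2 expression. All groups share the floxed alleles, the LPS treatment and growth in medium conditioned by L929 fibroblasts, which supplies M-CSF from outside the cells. Acly encodes ATP-citrate lyase, which makes cytosolic acetyl-CoA. The labels do not say whether replicates came from separate animals, so p-values measure only the spread between these libraries, which may be technical.

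M-CSF signals through the receptor tyrosine kinase CSF1R, which sustains macrophage survival and takes up and degrades its own ligand. GM-CSF is bound by the alpha chain Csf2ra, which joins the common beta chain Csf2rb to signal through JAK2 and STAT5. Mice also have Csf2rb2, a close relative of Csf2rb that serves the IL-3 receptor. G-CSF acts through Csf3r, known chiefly for neutrophil production and also found on monocytes and macrophages.

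The deposited values are raw read counts per transcript, with totals of 21274102 to 59577343 in 12 of the 13 libraries. The library labelled control 24 h replicate 1 held 34467 counts and was left out of the values and tests below. Levels are given as CPM, the counts set to a common library size by TMM scaling. The TMM factors were 0.899 to 0.929 in the 3 h libraries and 1.08 to 1.10 in the 24 h libraries. Small differences between the times therefore depend on this scaling, and every alternative fit used a scaling of this kind. Differences are log2 fold changes from edgeR's quasi-likelihood test with Benjamini-Hochberg adjustment over 19621 transcripts of 11942 genes, and 7 of 7 members passed its filter on low counts, Csf3 through its AclyM-KO libraries alone. A gene was called changed, or said to have risen or fallen, where its adjusted p was under 0.05 and its log2 difference exceeded 0.75 in size. Acly itself had 105 to 107 CPM in control and 37.7 to 46.2 in AclyM-KO libraries after 3 h, and 107 to 113 against 29.1 to 30.5 after 24 h LPS. Of 7 macrophage markers, 7 were tested, and with Lyz2 left out the other 6 summed to 3607 to 3699 CPM in control and 3700 to 3791 in AclyM-KO after 3 h, and to 3154 to 3350 and 3126 to 3307 after 24 h LPS. Within this sum, by the adjusted p alone, Adgre1 was higher in AclyM-KO after 3 h (0.24, adjusted p = 7.17e-04). Mertk (-0.31, adjusted p = 4.10e-04), Fcgr1 (-0.26, adjusted p = 0.00284) and Cd14 (-0.15, adjusted p = 0.0371) were lower. After 24 h Mertk alone passed (-0.33, adjusted p = 1.49e-04). With time in control, Cd14, Itgam and Cd68 were lower by -3.25, -0.82 and -0.38. Adgre1 and Fcgr1 were higher by 0.77 and 0.72, and Mertk differed by 0.004 (adjusted p = 0.956). Lyz2, the gene into which Cre is inserted, was lower in AclyM-KO by -0.97 and -1.40 (adjusted p = 1.10e-07 and 1.91e-09).

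Csf1, on the minus strand of chromosome 3 from 107741048 to 107760469 of GRCm38, was higher in AclyM-KO than in control macrophages at both times and was 3.97-fold lower after 24 h than after 3 h LPS in controls. Control libraries stood at 237, 229 and 241 CPM after 3 h and at 63.4, 60.0 and 55.3 after 24 h LPS. AclyM-KO libraries stood at 307, 275 and 286 CPM after 3 h and at 72.7, 87.2 and 81.4 after 24 h LPS. Every AclyM-KO library lay above every control library of the same time, and all 3 h libraries lay above all 24 h libraries. The 4 groups therefore stood in one order without overlap, from control 24 h (59.6 ± 4.06 CPM, SD, n = 3) over AclyM-KO 24 h (80.4 ± 7.32) and control 3 h (236 ± 5.90) to AclyM-KO 3 h (289 ± 16.3).

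The genotype difference of Csf1 was 0.30 on the log2 scale after 3 h (SE 0.06, adjusted p = 8.89e-04), a 1.23-fold higher level. After 24 h LPS it was 0.44 (SE 0.06, adjusted p = 1.17e-05), or 1.35-fold. Both passed the adjusted p and lay under the fold threshold. The genotype effects at both times differed by 0.14, with a 95% interval from -0.03 to 0.31 and an adjusted p of 0.335. Csf1 fell with time, with log2 differences between 24 h and 3 h LPS of -1.99 in control (SE 0.06, adjusted p = 5.00e-22) and -1.85 in AclyM-KO macrophages (SE 0.06, adjusted p = 2.64e-21).

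Because Csf1 is the ligand that moved most with time, its start region is shown. The RefSeq promoter of Csf1 spans 300 bases around the start, at chr3:107760420-107760719 on the minus strand of GRCm38.p6. Capitals mark the single match to the NF-kB consensus motif, searched on both strands as every motif here, which reads on the opposite strand and begins 154 bases before the start.
Csf1 promoter: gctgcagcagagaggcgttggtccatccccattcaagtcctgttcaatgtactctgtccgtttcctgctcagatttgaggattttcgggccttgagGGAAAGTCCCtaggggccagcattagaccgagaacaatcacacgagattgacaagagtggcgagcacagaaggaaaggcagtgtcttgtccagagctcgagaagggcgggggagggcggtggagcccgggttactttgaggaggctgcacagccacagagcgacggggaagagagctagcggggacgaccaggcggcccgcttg
The motif stood in 8.46% of the 32851 RefSeq promoters of the same length. Promoters of 4 of the 7 members were in the table (Csf1, Csf2ra, Csf2rb2 and Csf3r). Of these 4, Csf1 and Csf3r held this motif, each once, and Csf2rb2 held the 1 match to the PU.1-type motif GAGGAAGT, present in 3.20% of all promoters. The AP-1 motif TGANTCA (7.81% of all promoters) and the C/EBP-type motif TTGCNNAA (10.8%) had no match in the 4.

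Csf3 was near the limit of detection, and its few reads were more numerous in AclyM-KO libraries at both times. The gene lies on the plus strand of chromosome 11 from 98701263 to 98703629. The control libraries held 1, 2 and 1 of its reads after 3 h LPS, and the AclyM-KO libraries 9, 11 and 15. At 24 h it had 4, 6 and 6 counts in control and 17, 22 and 21 in AclyM-KO libraries. No control library of either time reached the level of any AclyM-KO library, with control levels up to 0.256 CPM and AclyM-KO levels from 0.461 CPM.

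Since no control library reached the level that the filter asks for, Csf3 could enter the fit only by being higher in AclyM-KO, and its p-values carry that selection. The fitted genotype difference of Csf3 was 3.00 after 3 h (SE 0.63, adjusted p = 0.00117) and 2.38 after 24 h LPS (SE 0.42, adjusted p = 1.46e-04). In the fit without any filter it was 3.00 (adjusted p = 4.07e-04) and 2.34 (adjusted p = 3.55e-05). Summed over the libraries, 35 counts in AclyM-KO stood against 4 in control after 3 h LPS. With depth taken into account this is a ratio of 8.53 with an exact 95% interval from 3.05 to 33.0. After 24 h LPS, 60 counts stood against 16, a ratio of 5.48 (3.12 to 10.2). These intervals cover counting error only. The levels at 24 h and 3 h overlapped in both genotypes, with log2 differences of 1.10 in control (adjusted p = 0.191) and 0.48 in AclyM-KO (adjusted p = 0.227). Their intervals ran from -0.40 to 2.60 and from -0.23 to 1.19. At 0.0456 to 0.549 CPM per kilobase of transcript in the group means, Csf3 was the lowest of the 7 members on the scale per length.

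The third ligand gene, Csf2, which encodes GM-CSF, was not among the members and did not reach the minimum counts for testing, and it is named here after its values were seen. It had 2, 2 and 1 counts in control and 2, 3 and 12 in AclyM-KO libraries after 3 h, and 0, 0 and 2 against 3, 1 and 1 after 24 h LPS. The ratio of 3.31 after 3 h had an exact interval from 1.17 to 11.5, and 12 of its 17 AclyM-KO counts came from 1 library.

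**Figure D1:**
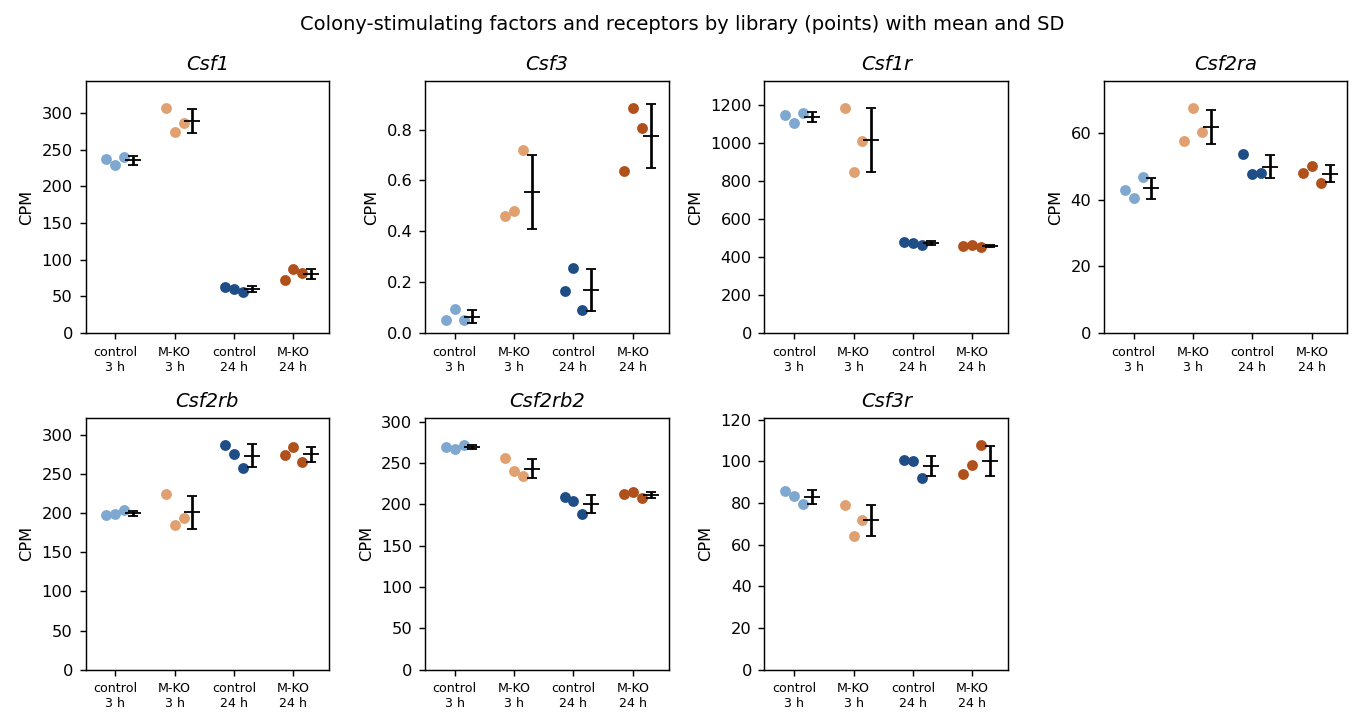
Levels of the 7 members in CPM (vertical axes, linear from 0) in each library (points) of control and AclyM-KO (M-KO) macrophages after 3 h and 24 h LPS, with the mean and SD of each group (n = 3) as black marks. Csf1 and Csf1r stood lower at 24 h in both genotypes, Csf2rb stood higher, and Csf2ra was highest in AclyM-KO after 3 h LPS, at 57.8 to 67.6 CPM.

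Csf1r, the M-CSF receptor and a defining gene of macrophages, had the highest level of the members and was more than 2-fold lower after 24 h than after 3 h LPS. Control libraries had 1149, 1109 and 1162 CPM after 3 h and 481, 477 and 462 after 24 h LPS. The AclyM-KO libraries had 1186, 851 and 1012 CPM after 3 h and 460, 465 and 453 after 24 h LPS. The 24 h libraries lay below all 3 h libraries, and the genotypes overlapped at both times. The 3 h AclyM-KO libraries were the most spread, with 1016 ± 167 CPM against 1140 ± 27.5 in control (SD, n = 3 each).

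Csf1r fell with time, with log2 differences of -1.27 in control (SE 0.08, adjusted p = 4.09e-09) and -1.15 in AclyM-KO (SE 0.08, adjusted p = 1.28e-08). The genotype difference was -0.17 after 3 h (adjusted p = 0.221) and -0.04 after 24 h LPS (adjusted p = 0.793), with 95% intervals from -0.33 to -0.002 (unadjusted) and from -0.21 to 0.12. The difference after 3 h was larger in size without AclyM-KO replicate 1, at -0.29 (adjusted p = 1.05e-04). The last 873 bases of Csf1r overlap Hmgxb3 on the opposite strand, and the strand setting of the counting is not given in the sources used here.

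Per kilobase of transcript, Csf1r stood at 295 CPM in control after 3 h and 122 after 24 h LPS, and Csf1 at 56.5 and 14.3. The ratio of receptor to ligand RNA per length was 5.21 to 5.22 in the 3 control libraries and 3.34 to 4.17 in AclyM-KO libraries after 3 h LPS. After 24 h it was 8.19 to 9.01 in control and 5.76 to 6.83 in AclyM-KO libraries. At both times the AclyM-KO libraries had the lower ratio, without overlap, and the 24 h libraries had the higher one.

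Csf2ra, the GM-CSF-binding chain, was higher in AclyM-KO than in control macrophages after 3 h LPS and overlapped between them after 24 h. It lies on the minus strand of chromosome 19 from 61223957 to 61228429. Values at 3 h were 43.1, 40.6 and 46.9 CPM in control and 57.8, 67.6 and 60.4 in AclyM-KO libraries. Those at 24 h were 53.9, 47.7 and 48.2 in control and 48.1, 50.2 and 45.1 in AclyM-KO libraries. AclyM-KO after 3 h was the one group that stood apart, above the 9 other libraries.

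The genotype difference of Csf2ra was 0.51 after 3 h (SE 0.07, adjusted p = 4.78e-06), a 1.43-fold higher level under the fold threshold, and -0.06 after 24 h LPS (adjusted p = 0.616, 95% interval from -0.19 to 0.07). The effects at both times differed by -0.57 (SE 0.10, adjusted p = 1.83e-04 for the interaction). With time the level was higher by 0.20 in control (adjusted p = 0.0117) and lower by -0.38 in AclyM-KO macrophages (adjusted p = 1.29e-05). The difference in control missed the threshold without control 3 h replicate 2 (0.16, adjusted p = 0.0669) and without control 24 h replicate 2 (0.14, adjusted p = 0.0879).

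Csf2rb and Csf2rb2 are neighbours on chromosome 15, on opposite strands and 20030 bases apart, at 78325752 to 78353847 (plus strand) and 78282507 to 78305721 (minus strand). Their coding sequences were 95.2% identical over 2628 aligned bases, with 125 mismatches and a longest identical run of 242. Of all stretches of 50 bases in the Csf2rb transcript, 18.9% also occur in Csf2rb2, and 19.0% the other way. Reads in such stretches cannot be told apart, and their handling by the authors is not given in the sources used here, so the split between both genes is uncertain. The windows of 90 coding bases with the most differences, both in exon 4, are shown since they are where reads separate the pair best, with the 16 mismatched positions in capitals. They lie at chr15:78338897-78338986 on the plus strand for Csf2rb and at chr15:78294345-78294434 on the minus strand for Csf2rb2, in GENCODE's annotation of GRCm38.
Csf2rb: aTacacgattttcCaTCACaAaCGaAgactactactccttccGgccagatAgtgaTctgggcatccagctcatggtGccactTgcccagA
Csf2rb2: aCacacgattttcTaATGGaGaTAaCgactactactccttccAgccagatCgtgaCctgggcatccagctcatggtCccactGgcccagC
A window of the same length in exon 8 had no mismatch, and reads that fall wholly inside it fit both genes.

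After TMM scaling, Csf2rb was higher and Csf2rb2 lower after 24 h than after 3 h LPS, in both genotypes. For Csf2rb the control libraries had 197, 199 and 203 CPM after 3 h and 287, 275 and 258 after 24 h LPS. The AclyM-KO libraries had 224, 184 and 194 CPM after 3 h and 275, 285 and 266 after 24 h LPS. The 24 h libraries lay above all 3 h libraries, and the genotypes overlapped at both times. The log2 differences between the times were 0.45 in control (SE 0.06, adjusted p = 6.10e-08) and 0.45 in AclyM-KO (SE 0.06, adjusted p = 4.94e-08), both under the fold threshold. Between genotypes Csf2rb differed by 0.01 at either time, with 95% intervals from -0.11 to 0.12 after 3 h and from -0.10 to 0.12 after 24 h LPS.

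For Csf2rb2 the control libraries had 269, 267 and 272 CPM after 3 h and 209, 205 and 188 after 24 h LPS. The AclyM-KO libraries had 256, 240 and 234 CPM after 3 h and 212, 214 and 207 after 24 h LPS. The AclyM-KO libraries lay below the controls after 3 h and overlapped them after 24 h LPS. The differences with time were -0.43 in control (SE 0.05, adjusted p = 5.90e-09) and -0.20 in AclyM-KO (SE 0.05, adjusted p = 5.87e-04). In AclyM-KO the lower level rests on the TMM scaling. The unscaled Csf2rb2 counts there were 4992, 5480 and 4869 after 3 h and 5651, 5328 and 5405 after 24 h LPS. The totals of these libraries were 21717016 to 24638561 after 3 h and 22833631 to 24645825 after 24 h LPS. The genotype differences were -0.15 after 3 h (adjusted p = 0.0452) and 0.08 after 24 h LPS (adjusted p = 0.333), and the effects differed by 0.22 (SE 0.07, adjusted p = 0.0403). The genotype difference after 3 h had adjusted p from 0.0132 to 0.196 with each library left out in turn and passed in 3 of 12 such fits. The interaction passed in 2 of 12, without AclyM-KO 3 h replicate 1 (0.25, adjusted p = 0.0141) and without control 24 h replicate 2 (0.25, adjusted p = 0.0367), and had adjusted p up to 0.126 in the other 10.

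Within a library, the share of Csf2rb2 in the counts of the pair does not depend on scaling. It was 57.7%, 57.2% and 57.2% in control and 53.3%, 56.5% and 54.7% in AclyM-KO libraries after 3 h LPS. At 24 h it was 42.1%, 42.7% and 42.2% in control and 43.6%, 42.9% and 43.8% in AclyM-KO libraries. So the 3 h libraries held more Csf2rb2 than Csf2rb counts and the 24 h libraries fewer, in each of the 12 libraries. The mean share was 56.1% over the 6 libraries at 3 h and 42.9% over the 6 at 24 h, a difference of -13.2 percentage points (exact two-sided permutation test, p = 0.00216, adjusted p = 0.00433 over 2 tests, the smallest the test can give). Between genotypes the share differed in opposite directions at the times, without overlap, by -2.54 points after 3 h and by 1.15 points after 24 h LPS (AclyM-KO minus control), where 3 libraries against 3 cannot go below an exact p of 0.10. Pooled over both times the difference was -0.69 points (exact permutation p = 0.749), a value in which these directions cancel in part. Summed over the pair, the counts differed between the times by 0.01 in control (adjusted p = 0.824) and by 0.13 in AclyM-KO (adjusted p = 0.0221). The sum was added as a measure after the single genes had been seen.

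**Figure D2:**
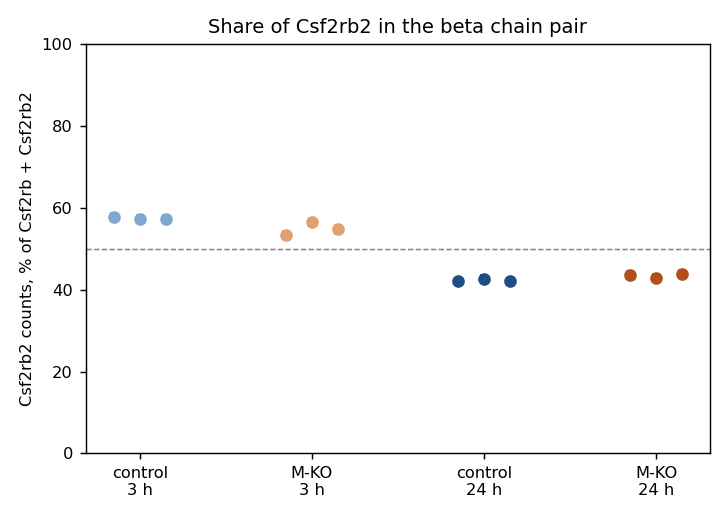
Share of Csf2rb2 in the summed counts of Csf2rb and Csf2rb2 (percent, vertical axis) in each library of control and AclyM-KO (M-KO) macrophages after 3 h and 24 h LPS. The exact 95% binomial intervals are smaller than the points, and the dashed line marks equal counts. The 3 h libraries lie at 53.3% to 57.7% and the 24 h libraries at 42.1% to 43.8%.

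Set per length against the alpha chain, the beta chains Csf2rb and Csf2rb2 together stood at 3.95 to 4.47 times Csf2ra in control and 2.44 to 3.23 times in AclyM-KO libraries after 3 h LPS. The ratios at 24 h were 3.58 to 3.91 and 3.87 to 4.08. The 3 h AclyM-KO libraries had the lowest ratios of the 12.

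Csf3r, the G-CSF receptor on the plus strand of chromosome 4 from 126024550 to 126044440, was higher after 24 h than after 3 h LPS in both genotypes. The control libraries had 85.9, 83.2 and 79.5 CPM after 3 h and 101, 100.3 and 92.0 after 24 h LPS. The AclyM-KO libraries had 79.1, 64.3 and 71.6 CPM after 3 h and 94.0, 98.3 and 108 after 24 h LPS. The 24 h libraries lay above all 3 h libraries, and the genotypes overlapped after 24 h but not after 3 h LPS, where the closest libraries were 79.1 and 79.5 CPM.

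The differences of Csf3r with time were 0.23 in control (SE 0.07, adjusted p = 0.00205) and 0.48 in AclyM-KO macrophages (SE 0.07, adjusted p = 1.62e-07). The genotype differences were -0.21 after 3 h (SE 0.07, adjusted p = 0.0309) and 0.04 after 24 h LPS (95% interval from -0.09 to 0.16). The effects differed by 0.25 (adjusted p = 0.0909), which passed without AclyM-KO 3 h replicate 1 alone (0.31, adjusted p = 0.0107). The genotype difference after 3 h missed the threshold without control 3 h replicate 1 or 2 or AclyM-KO 3 h replicate 2 or 3, with adjusted p up to 0.178. Csf3r is also a neutrophil gene. Of 10 neutrophil markers, 4 were tested, and the 10 summed to 12.7 to 14.3 CPM in control and 11.9 to 15.3 in AclyM-KO after 3 h, and to 3.44 to 4.70 and 3.74 to 4.47 after 24 h LPS, with Ly6g and Retnlg at 0 in the 12 libraries. All 4 tested markers fell with time, where Csf3r was higher, and none passed the test between genotypes.

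Counted over the members, Csf3 alone was changed between genotypes, higher in AclyM-KO at both times, with the selection by the filter named above. That is 1 of 7 members at each time, where 2.01% of all genes tested passed the same rule after 3 h and 1.38% after 24 h LPS (1.41% and 0.896% as higher, 0.603% and 0.486% as lower). By the adjusted p alone, 5 members passed after 3 h (Csf1, Csf2ra and Csf3 higher, Csf2rb2 and Csf3r lower, against 15.4% of all genes, 8.52% as higher and 6.92% as lower) and 2 after 24 h LPS (Csf1 and Csf3, higher, against 13.9%, 8.31% as higher and 5.59% as lower). The groups did not overlap for the same numbers of members, 5 and 2, against 30.1% and 33.0% of all genes. The median log2 difference over the members was 0.01 after 3 h and 0.04 after 24 h LPS, and over all genes -0.01 and 0.01.

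**Figure D3:**
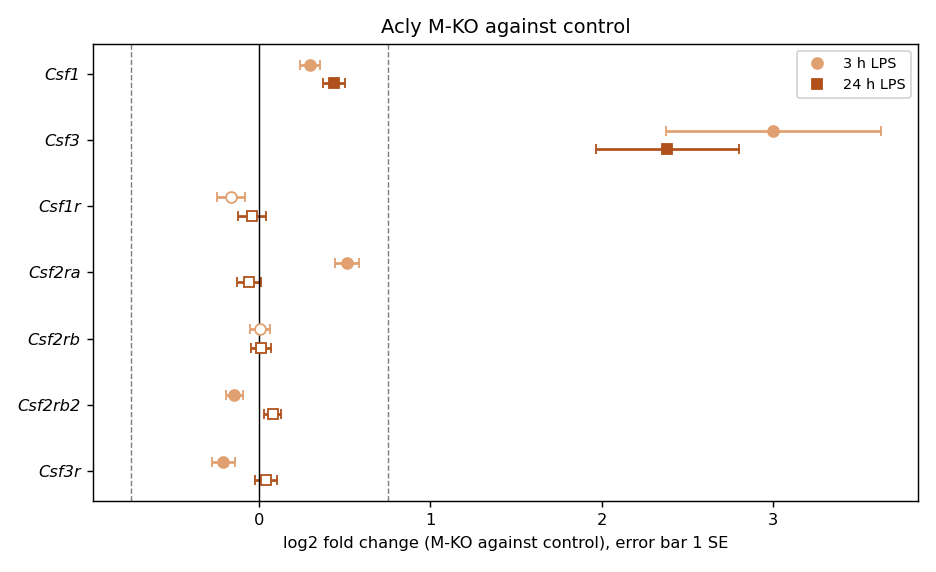
Log2 fold change of AclyM-KO against control (horizontal axis) for each member after 3 h (circles) and 24 h LPS (squares), with 1 SE as the error bar. Filled marks have an adjusted p under 0.05 and dashed lines mark the fold threshold of 0.75. Csf3 lies beyond it at 3.00 and 2.38, and Csf2ra is filled at 3 h only.

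With time, Csf1 and Csf1r fell in both genotypes and no member rose past the fold threshold. These are 2 of 7 members, where 40.4% of all genes in control and 42.0% in AclyM-KO macrophages passed the same rule. Of all genes, 19.5% in control and 20% in AclyM-KO passed it as lower, and 20.9% and 21.9% as higher. A share of this size is near that of all genes. By the adjusted p alone, 6 members passed in each genotype (all but Csf3), against 74.9% and 75.7% of all genes. In control 3 were higher and 3 lower, against 38.9% and 36.0% of all genes, and in AclyM-KO 2 were higher and 4 lower, against 39.4% and 36.3%. For the 6 the groups did not overlap, as for 77.5% and 76.8% of all genes. Unstimulated libraries were not analysed here, so both time comparisons lie within LPS treatment. The genotype by time interaction passed for Csf2ra and Csf2rb2, 2 of 7, against 9.59% of all genes (4.88% with a positive and 4.71% with a negative difference). The number was 1, for Csf2ra, in 10 of the 12 fits with a library left out and 4 without AclyM-KO 3 h replicate 1, where Csf1r and Csf3r passed as well.

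**Figure D4:**
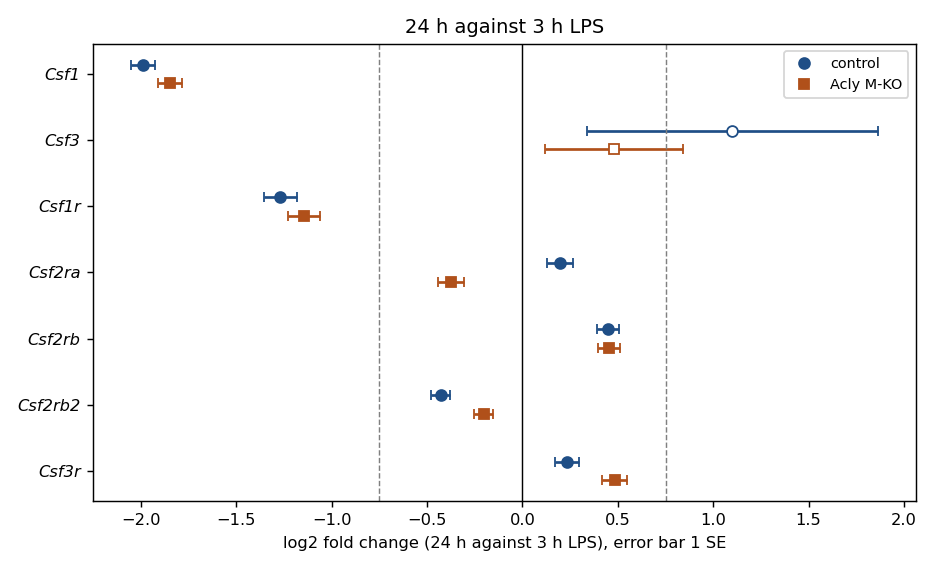
Log2 fold change of 24 h against 3 h LPS (horizontal axis) for each member in control (circles) and AclyM-KO macrophages (squares), with 1 SE as the error bar. Filled marks have an adjusted p under 0.05 and dashed lines mark the fold threshold of 0.75. Csf1 and Csf1r lie beyond it on the lower side, and Csf2ra lies on opposite sides of 0 in the 2 genotypes.

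Genes whose log2 CPM followed a member most closely over the 12 libraries were listed among 10603 genes with a mean of at least 1 CPM, 3 for each member. The libraries fall into the same 4 groups for each gene, so the values mostly describe group levels. For Csf1 they were Cd33, Fsd1l and Plaur (Pearson r 0.996 to 0.997), and for Csf1r they were Ddhd1, Dyrk2 and Mapkapk3 (0.997 to 0.998). For Csf3 they were Ier5, Spns1 and Scpep1 (0.933 to 0.943), and for Csf2ra they were Slc7a1, Hsd17b7 and Galnt12 (0.896 to 0.919). For Csf2rb they were Prex1, Nt5m and Slc8a1 (0.980 to 0.984), for Csf2rb2 Sipa1l2, Kdelr1 and Spen (0.979 to 0.987), and for Csf3r Nfya, Prps1l3 and Acpp (0.959 to 0.969). Csf2ra, whose level was set apart by 1 group, had the lowest best value.

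Genes of the JAK-STAT pathway, through which the GM-CSF and G-CSF receptors signal, were counted as a list. Of 19 listed genes, all were tested, and 2 rose and 9 fell between 3 h and 24 h LPS in control macrophages (20.9% and 19.5% of all genes did), with a median log2 difference of -0.61 against 0.04 over all genes. In AclyM-KO, 1 rose and 9 fell (21.9% and 20% of all genes), with a median of -0.87 against 0.04. Cish, a feedback inhibitor induced by STAT5, had 34.6 ± 1.62 CPM in control after 3 h and 1.13 ± 0.28 after 24 h LPS (SD, n = 3 each), a log2 difference of -4.98 (SE 0.11, adjusted p = 2.02e-26). Stat5a, the transcription factor itself, had 219 ± 8.46 and 10.6 ± 0.46 CPM, a log2 difference of -4.36 (SE 0.06, adjusted p = 3.45e-31). Socs1, another feedback inhibitor, fell by 2.38 on the log2 scale. The phosphatase gene Ptpn6 and the kinase gene Tyk2 rose by 1.04 and 0.91.

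In AclyM-KO macrophages Cish, Stat5a and Socs1 fell too, with log2 differences of -4.80, -4.16 and -2.53, and Tyk2 rose by 0.79. Between genotypes none of the 19 changed after 3 h LPS, and Socs2, a STAT5-induced inhibitor, alone did after 24 h. It was higher by 2.10 (SE 0.59, adjusted p = 0.0153) at levels of 0.0458 to 0.123 CPM in control and 0.230 to 0.375 in AclyM-KO libraries, a handful of reads per library. By the adjusted p alone, 8 of the 19 were higher and 4 lower after 3 h, and 8 higher and 1 lower after 24 h LPS. Of all genes, 8.52% were higher and 6.92% lower after 3 h, and 8.31% and 5.59% after 24 h LPS.

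**Figure D5:**
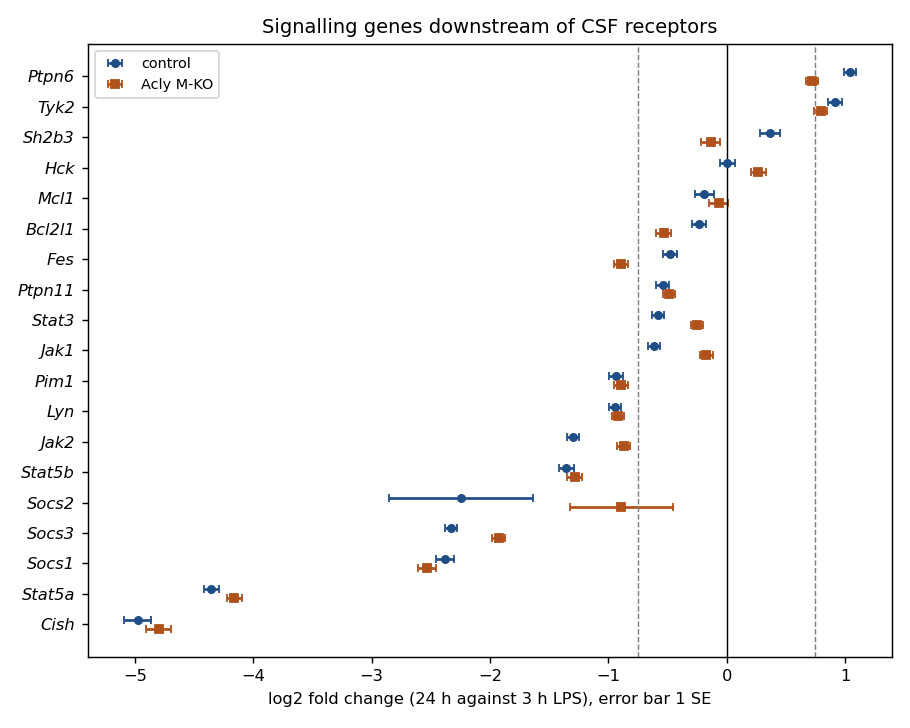
Log2 fold change of 24 h against 3 h LPS (horizontal axis) for the 19 genes of the JAK-STAT list, in control (circles) and AclyM-KO macrophages (squares), with 1 SE as the error bar and dashed lines at the fold threshold of 0.75. Cish and Stat5a lie lowest in both genotypes, at -4.98 and -4.36 in control.

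The list of CSF1R signalling and turnover held 21 genes, all tested, and none changed between genotypes at either time, with 5 past the adjusted p after 3 h (2 higher, 3 lower) and 4 after 24 h LPS (2 each way), against 15.4% and 13.9% of all genes. Its median log2 genotype differences were -0.004 and -0.02, against -0.01 and 0.01 over all genes. With time, 3 rose and 4 fell in control, and 3 rose and 6 fell in AclyM-KO, against 40.4% and 42.0% of all genes that changed, with medians of -0.12 and -0.13 against 0.04 and 0.04. Src, a kinase of the receptor's signalling, had 154 ± 4.46 CPM in control after 3 h and 26.3 ± 1.58 after 24 h LPS, a log2 difference of -2.56 (SE 0.07, adjusted p = 3.76e-25), and of -2.16 in AclyM-KO. Rhbdf2, a partner of the shedding protease Adam17, fell, with log2 differences of -1.66 in control and -1.54 in AclyM-KO, and so did the kinase gene Fyn, with -1.36 and -1.33. Inpp5d, a lipid phosphatase that limits the pathway, had 41.2 ± 0.95 and 108 ± 3.77 CPM in control, a log2 difference of 1.39 (SE 0.06, adjusted p = 1.34e-19), and of 1.45 in AclyM-KO. The adaptor gene Gab3 rose by 1.63 and 1.41, Pik3cg rose by 0.84 in control, and Dok1 rose by 0.85 in AclyM-KO.

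Of 15 listed transcription factors of the myeloid lineage, 14 were tested. Klf4, a factor of monocytes, was higher in AclyM-KO by 0.79 after 3 h (adjusted p = 2.43e-04) and by 0.77 after 24 h LPS (adjusted p = 2.19e-07), and Ets2 was higher by 0.87 after 3 h (adjusted p = 8.44e-11). With time 5 rose and 4 fell in control, and 5 rose and 7 fell in AclyM-KO, where 40.4% and 42.0% of all genes changed. The medians were -0.37 and -0.77, against 0.04 and 0.04 over all genes. Cebpa and Klf4 rose by 2.54 and 2.15 in control and by 2.35 and 2.14 in AclyM-KO. Egr2, Tfec and Irf8 fell, with log2 differences of -4.47, -2.91 and -2.56 in control and -3.91, -2.62 and -2.85 in AclyM-KO.

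Of 9 related ligands and receptors (IL-34, the IL-3 and IL-5 system, stem cell factor and FLT3 with their receptors), 4 were tested. Kit, the stem cell factor receptor, had 2.14 to 2.79 CPM in control and 4.04 to 5.64 in AclyM-KO libraries after 3 h LPS, a log2 difference of 0.88 (SE 0.19, adjusted p = 0.00122). With time Kit fell (-1.81 in control and -2.004 in AclyM-KO), Flt3l rose by 1.11 and 1.34, and Kitl fell in control (-0.83). Il3ra, which pairs with Csf2rb2, was not changed in any comparison, with log2 genotype differences of 0.23 (adjusted p = 0.0724) and 0.005. With time Il3ra was lower by -0.20 in control (adjusted p = 0.0354) and by -0.43 in AclyM-KO (adjusted p = 5.70e-05), both under the fold threshold.

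Markers of other cell types were low or moved with time. Of 6 dendritic cell markers, 3 were tested, and the 6 summed to 15.8 to 17.3 CPM in control and 10.9 to 12.1 in AclyM-KO after 3 h, and to 1.89 to 1.97 and 2.76 to 2.94 after 24 h LPS. Most of the 3 h sum was Clec10a, with means of 14.7 CPM in control and 9.55 in AclyM-KO. Clec10a alone passed the adjusted p between genotypes, lower in AclyM-KO after 3 h (-0.63, adjusted p = 2.50e-04). With time Clec10a and Xcr1 fell and Ccr7 rose in both genotypes, so the 3 did not move as a set. The 6 stromal cell markers summed to at most 1.502 CPM and the 6 markers of basophils, mast cells and eosinophils to at most 0.410, with Mcpt8 and Fcer1a at 0. What these cells add to the results was not tested, and in bulk libraries fewer cells of a type and less RNA per cell cannot be told apart.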

How the data were processed

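Per the methods of the study, strand-specific mRNA libraries were aligned to mm10 with STAR 2.5.2b, and tag counts were summed with HOMER. The authors deposited raw counts of 35745 transcripts in 13 libraries. The isoform and strand settings are not given in the sources used here. Csf2rb2 transcripts of 4740 and 3375 bases had the same count in every library, and so had the transcripts of Csf3r. The counts therefore do not separate such transcripts. Symbols came from RefSeq and GENCODE tables for 35628 transcripts, and the 117 others (1.13% of counts) were kept. Groups came from the labels. Control 24 h replicate 1 held 34467 counts and was left out of the fit, and 1 count was worth 0.0168 to 0.0470 CPM before scaling in the other 12 libraries. Replicates differed beyond sampling noise (chi-square per degree of freedom 2.60 to 11.2).

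Tests used edgeR 4.0.16 in R 4.3.3 (TMM, filterByExpr, robust quasi-likelihood fit of 4 groups, Benjamini-Hochberg adjustment over 19621 transcripts), with DESeq2 1.42.0 as an alternative. Standard errors came from the fold change and F statistic. The 95% intervals of log2 fold changes came from those by a normal approximation, unadjusted, and can be narrower than edgeR's test implies. Levels per kilobase used the GENCODE length of the representative transcript, so these levels and the ratios per length depend on that choice. The scripts were tested on simulated data. Members and lists were chosen with earlier results of these data known. Named were all members, list genes changed between genotypes, the 3 largest changes of each list per direction and time (without the lists of markers), and 3 genes most like each member. Csf2, Il3ra and single marker genes were named outside this rule. A gene that the rule names is not reported here, though the counts of its list include it. Alternatives were another scaling, DESeq2, no filter, all 13 libraries, a replicate block, 1 transcript per gene and leaving out each library.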

Additional observations from a re-analysis of the deposited data

Results flagged for a closer look

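Control 24 h replicate 1, with 34467 counts, stood apart from the 3 other control libraries at 24 h for 5 members. It had 987 CPM of Csf1r against 462 to 481, 319 of Csf2rb2 against 188 to 209, 87.1 of Csf2rb against 258 to 287, 29.0 of Csf3r (1 count) against 92.0 to 101, and 0 of Csf2ra against 47.7 to 53.9. At its depth 1 count is 29.0 CPM and a count of 0 allows up to 3 counts, or 87.1 CPM, so its 0 for Csf2ra does not separate it from the others. Its values of Csf3r, Csf2rb, Csf2rb2 and Csf1r rest on 1, 3, 11 and 34 counts. Whether these lie apart beyond counting error was not tested. Chance marks about 1 in 20 groups in this way, and the 5 values come from the same library.

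The genotype effect differed between the times for Csf2ra, by -0.57 on the log2 scale (adjusted p = 1.83e-04 from edgeR's interaction test), and passed in all 12 fits with a library left out. It also differed for Csf2rb2, by 0.22 (adjusted p = 0.0403), and passed in 2 of those 12.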

How the results depend on the processing

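The interaction passed for 2 members in the fit reported and for 1 with DESeq2 size factors, without independent filtering in DESeq2, without the filter on low counts, with all 13 libraries, with the replicate block and with 1 transcript per gene. With each library left out it passed for 1 to 4. DESeq2 counted 0 members as changed between genotypes at each time because its independent filtering gave Csf3 no adjusted p. Without that step, added after seeing the data, it counted 1 at each time. The share of Csf2rb2, at 24 h against 3 h, differed by -8.13 points with all 13 libraries (exact permutation p = 0.126) and by -13.8 to -12.9 with each library left out. The library added among the 13, control 24 h replicate 1, held 3 counts of Csf2rb and 11 of Csf2rb2. Its share of 78.6% (exact 95% interval from 49.2% to 95.3%) weighed as much as that of any other library. Pooled over the times, the genotype difference of the Csf2rb2 share ran from -2.25 to 0.874 points, since leaving out a library unbalances the times.

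Differences near 0 changed sign. The interaction of Csf2rb was 0.00444 as reported, -0.00173 with DESeq2 size factors, -0.00181 in both DESeq2 fits, -0.0200 without the filter, -0.0582 with the replicate block, -0.00409 with 1 transcript per gene and -0.0699 to 0.0772 with a library left out. Its genotype difference at 24 h was -0.0126 without the filter, -0.0550 with the replicate block and -0.0327 to 0.0471 with a library left out, and at 3 h -0.0794 with Csf2rb2 summed in and -0.0781 to 0.0684 with a library left out. For Csf3r at 24 h it was -0.0225 with the replicate block and -0.0213 to 0.0821 with a library left out, and the interaction of Csf1r ran from -0.00630 to 0.234. Same-numbered replicates showed little shared deviation (correlations of -0.01 to 0.06 over 10 pairs), so no pairing by number was seen. A weak pairing may not show in so few libraries. With the replicate block the interaction of Csf2rb2 was 0.17 (adjusted p = 0.158), and no other call of a member was lost. Over the 7 other alternatives, the genotype differences at 3 h passed the adjusted p in 1 for Csf2rb2 (0.0321 to 0.106) and in 4 for Csf3r (0.00975 to 0.0619), and that of Csf1r passed without the filter (0.0168).

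Csf1, Csf1r and Csf3 were on the same side of both thresholds in the time and genotype comparisons they had passed, under every alternative that gave an adjusted p. For Csf3 the alternatives reuse the same reads and, apart from the fit without the filter, the same selection through its AclyM-KO libraries. The low counts of Csf3 limit its precision. The depth of control 24 h replicate 1 is too low for single members.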
